A study of Rattus norvegicus with 7 samples.

Results

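The miR-99, miR-100 and miR-125 microRNAs were followed in rat primary skeletal muscle cells cultured with or without interleukin-6 (IL-6), a signalling protein released by working muscle among other tissues. The 7 members were taken by name from the 719 miRNAs of the array: rno-miR-99a-5p, rno-miR-99b-5p, rno-miR-100-5p, rno-miR-125a-5p, rno-miR-125b-5p and the 3p arms rno-miR-125a-3p and rno-miR-125b-2-3p (rno, for rat, is left out from here on). All came from total RNA of limb muscle cells of newborn rats, frozen at an early passage and bought from a cell collection. The cells grew in fetal bovine serum and were collected on day 11 after a switch to low horse serum, a step meant to start differentiation. The control group held 3 untreated samples and the IL-6 group 4 samples given recombinant IL-6 at 1 ng/ml over that time, with 1 array per sample. The groups follow the titles and the series design, although the growth protocol given for control samples also mentions IL-6. Whether replicates came from separate cultures is not given in the sources used here, so each p-value reflects the spread among these samples alone, which may be technical.

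miR-99a, miR-99b and miR-100 form the miR-99 family, known for targeting mTOR, and miR-125a and miR-125b form the vertebrate relatives of lin-4, the first miRNA described in worms. In mammals the genes lie in clusters in which a miR-99 family hairpin, a let-7 hairpin and a miR-125 hairpin follow each other. In myoblasts miR-125b is known to restrain insulin-like growth factor 2, a growth factor that drives differentiation. A hairpin can give a mature miRNA from each of its arms, the 5p and the 3p arm, and a miRNA recognises its targets mainly through the seed, bases 2 to 8.

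The mature sequences show which members can share targets and which can share array signal. They are given 5′ to 3′ from RefSeq (rat assembly GRCr8), where 6 of the 7 members were matched, with the seed in capitals.
miR-99b-5p: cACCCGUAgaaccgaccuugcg
miR-100-5p: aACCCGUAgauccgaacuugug
miR-125a-5p: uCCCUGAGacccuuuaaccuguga
miR-125b-5p: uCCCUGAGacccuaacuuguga
miR-125a-3p: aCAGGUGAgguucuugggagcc
miR-125b-2-3p: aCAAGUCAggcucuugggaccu
miR-100-5p and miR-99b-5p shared 1 seed, and miR-125a-5p and miR-125b-5p another. Each 3p arm had a seed that no other array miRNA in the RefSeq list carried. From miR-100-5p to miR-99b-5p, both 22 bases long, 4 bases differed (A1C, U11A, A16C and U21C, counted from the 5′ end of miR-100-5p), all of them outside the seed. miR-125a-5p and miR-125b-5p were identical over the first 13 bases and the last 5. The only other array miRNA with a member's seed was miR-351-5p, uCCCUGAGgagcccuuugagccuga, shown because it carries the miR-125 seed; it was detected on no array.

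The members come from 3 loci. On chromosome 1 (GRCr8, plus strand) Mir99b at chr1:67350064-67350133, Mirlet7e at chr1:67350229-67350321 and Mir125a at chr1:67350675-67350759 lie within 696 bases, inside the span of the protein-coding gene Spaca6. On chromosome 8 Mir100 at chr8:50798295-50798374, Mirlet7a-2 at chr8:50805203-50805298 and Mir125b1 at chr8:50850036-50850122 span 51.8 kb, inside Mir100hgl and Lnc215. On chromosome 11 Mir99a at chr11:29687392-29687472 and Mirlet7c1 at chr11:29688112-29688205 lie inside the long non-coding RNA gene LOC103693508, with the 3p arm of miR-125b-2 ending 45.3 kb from the start of Mir99a. The miR-125b-5p sequence listed at Mir125b2 was also found in the Mir125b1 hairpin, so its probe signal cannot be assigned to 1 of the 2 loci. The 3p arms do differ between these hairpins. The miR-125a hairpin is shown, with both arms in capitals, because both of its arms are members measured above background on every array:
Mir125a: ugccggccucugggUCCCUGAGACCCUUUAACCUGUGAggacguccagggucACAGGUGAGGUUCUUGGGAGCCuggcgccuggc

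Array probes complement a miRNA from its 3′ end, so they read mainly the part outside the seed. The brightest probes of the miR-99 family are shown because they differ so little; capitals mark the bases that differ from the miR-99a-5p probe at the same position, counted from the probe's 5′ end.
miR-99a-5p, 20 bases: cacaagatcggatctacggg
miR-100-5p, 19 bases: cacaagTtcggatctacgg
miR-99b-5p, 16 bases: cGcaagGtcggTtcta
The miR-100-5p probe differed from that of miR-99a-5p at 1 base (A7T) and the miR-99b-5p probe at 3 (A2G, A7G and A12T). A probe of miR-99a-5p or miR-100-5p can therefore take signal from the other miRNA, and their changes may not be separate measurements. miR-125a-5p and miR-125b-5p, alike at both ends, may share probe signal as well, which was not tested.

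Across the series, 174 to 185 miRNAs were called detected per control array and 179 to 207 per IL-6 array. All 7 arrays were on 1 slide with 1 scan time; control arrays lay in 1 slide row and IL-6 arrays in the other, so the treatment cannot be told apart from the row. The cell label was checked against marker miRNAs. None of 7 skeletal muscle markers, among them miR-1-3p, miR-133a-3p and miR-206-3p, was detected on any array. All 5 fibroblast and smooth muscle markers were detected on every array. The log2 of their summed intensity was 14.51 to 14.62 in control and 14.34 to 14.56 with IL-6. None of the 5 passed the test between groups. Of these 5, miR-214-3p is known from muscle cells as well. No endothelium or epithelium marker was detected (2 and 4 listed), of 4 blood markers miR-223-3p alone was detected on some array, and of 4 nerve markers 2 were detected on every array. The part of these cell types in the results below was not tested. In such bulk RNA, fewer cells of a type and less RNA per cell cannot be told apart.

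Setting the IL-6 group beside control asks whether the cytokine, present during the time in low horse serum, changes these miRNAs. None of the 7 members passed the test (limma, Benjamini-Hochberg adjustment over the 181 miRNAs tested, threshold 0.05), where 9.39% of all tested miRNAs did: 4.97% were higher and 4.42% lower with IL-6. None of the 7 had an unadjusted p under 0.05 either (27.1% of all tested). The IL-6 and control values overlapped in all 7 members, while 22.1% of the tested miRNAs showed no overlap (11.6% higher and 10.5% lower with IL-6). Of these members, miR-125b-2-3p was at the floor on 6 of 7 arrays, so its values could not separate. The results above therefore rest on the other 6. For the 6 members measured above background on every array, the changes lay between -2.96% and 2.91%, and the sign of several turned with the scaling between arrays, as shown at the end. The median log2 fold change of these 6 was -0.0097, against 0.015 over all tested miRNAs. The slide column is a second position on the slide that could act as a batch, and 3 columns held 1 array of each group. With the column as a block, a fit to which IL-6 replicate 2 does not contribute since its column held no control, 0 of the 181 miRNAs passed (0%; limma, 52 at an unadjusted p under 0.05), so the 9.39% rests on the fit without it. The members' log2 fold changes in that fit ran from -0.037 for miR-125b-5p to 0.063 for miR-125a-3p. Within the 3 columns each of the 6 members had differences of both signs, for example -0.081, -0.085 and 0.054 for miR-125b-5p. The 95% confidence interval of each change is given below; a p that misses the threshold does not show that the levels were equal.

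Levels are intensities of the miRNA's brightest probe, scaled between arrays and shown on the log2 scale where stated. They depend on the probe, so no level is set against that of another miRNA.

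miR-99a-5p, which shares its locus with let-7c, had scaled intensities of 830, 849 and 846 on control replicates 1 to 3. On IL-6 replicates 1 to 4 they were 823, 783, 828 and 862. IL-6 replicate 2 was the lowest of the 7 and IL-6 replicate 4 the highest, with all controls between them. The log2 level was 9.72 ± 0.017 (SD, n = 3) in control and 9.69 ± 0.057 (SD, n = 4) with IL-6, a log2 fold change of -0.031 ± 0.035 (SE; 95% confidence interval -0.12 to 0.055; limma, Benjamini-Hochberg adjusted p = 0.715). With quantile normalization it was -0.11 ± 0.032 (SE; limma, adjusted p = 0.0830). With normexp background correction followed by quantile normalization, called normexp below, it was -0.10 ± 0.029 (SE; limma, adjusted p = 0.0613). These larger changes did not pass either, and both settings share the quantile step.

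miR-100-5p, from the chromosome 8 locus, had 232, 244 and 235 in control and 230.0, 232, 241 and 258 with IL-6. IL-6 replicate 4 stood above all controls, replicates 1 and 2 just below the lowest control and replicate 3 among them. Its log2 fold change was 0.018 ± 0.046 (SE; 95% confidence interval -0.096 to 0.13; limma, Benjamini-Hochberg adjusted p = 0.891).

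miR-99b-5p, from the compact chromosome 1 locus, had 340.0, 334 and 329 in control and 356, 307, 328 and 335 with IL-6. Here IL-6 replicate 1 was the highest of all arrays and IL-6 replicate 2 the lowest. The spread between the IL-6 arrays (SD 0.088 on the log2 scale, n = 4) exceeded the change of -0.013 ± 0.051 (SE; 95% confidence interval -0.14 to 0.11; limma, Benjamini-Hochberg adjusted p = 0.909).

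miR-125a-5p, its neighbour at that locus, was the member with the smallest spread: 522, 507 and 522 in control and 506, 500.3, 525 and 528 with IL-6. IL-6 replicates 1 and 2 lay below every control and replicates 3 and 4 above. The log2 fold change was -0.0060 ± 0.028 (SE), with a 95% confidence interval from -0.074 to 0.062, which corresponds to a change between -5.02% and 4.42% (limma, Benjamini-Hochberg adjusted p = 0.909).

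miR-125b-5p, the restrainer of insulin-like growth factor 2, had scaled intensities of 12790, 13167 and 12468 in control and 12091, 12276, 12411 and 12946 with IL-6. Of the IL-6 arrays 3 lay below every control and replicate 4 lay among them. The log2 level was 13.64 ± 0.039 (SD, n = 3) in control and 13.60 ± 0.042 (SD, n = 4) with IL-6. The change of -2.96% (95% confidence interval -8.19% to 2.57%) did not pass (limma, Benjamini-Hochberg adjusted p = 0.505). No spot of a member was saturated on any array.

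The 3p arms were dim. miR-125a-3p, the partner arm of miR-125a-5p, had 24.0, 25.6 and 25.2 in control and 29.2, 24.5, 23.2 and 26.0 with IL-6, not far above the floor of 15.7 that was set for signals near background. IL-6 replicate 1 was the highest and replicate 3 the lowest of all arrays, with the controls between them. Its log2 fold change was 0.041 ± 0.080 (SE; 95% confidence interval -0.15 to 0.24; limma, Benjamini-Hochberg adjusted p = 0.830), the widest interval of the 6 members.

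miR-125b-2-3p was well above background on 1 array alone, IL-6 replicate 2, although the scanner software called it detected on all 3 control arrays and 3 of 4 IL-6 arrays. Before the floor its brightest probe read 10.9 to 16.3 in control and at most 13.4 with IL-6. On 6 of the 7 arrays it was therefore at the floor, and no fold change is given. The 3p arm of the other miR-125b hairpin, miR-125b-1-3p, is no member and was detected on no array.

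**Figure D1:**
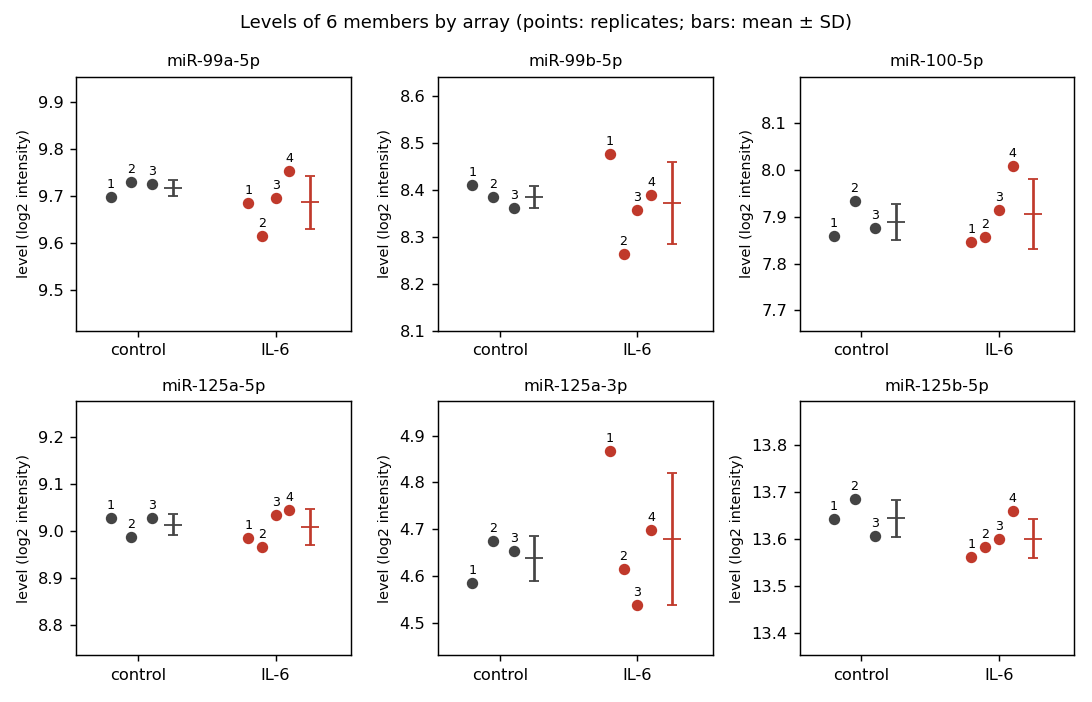
Scaled log2 intensity (y axis) of 6 members on each of the 3 control and 4 IL-6 arrays; points carry replicate numbers, bars give the mean ± SD, and all panels span the same log2 range. Control and IL-6 arrays overlap in every panel, and miR-125a-3p has the widest spread.

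The members varied little between replicates. The within-group SD of miR-125a-5p was 0.033 on the log2 scale, and 2 of the 157 tested miRNAs above the floor on all arrays had a smaller one. For miR-125b-5p it was 0.041, with 5 of the 157 smaller, and for miR-99a-5p 0.045, with 12 smaller. miR-100-5p (0.063, 36 smaller) and miR-99b-5p (0.070, 44 smaller) also lay below the median of 0.096. miR-125a-3p, at 0.11, had 100 miRNAs below it. Bright miRNAs had less spread in general: the median was 0.077 among the 49 with a mean log2 intensity over 8, a level that miR-100-5p and miR-125a-3p did not reach. These are descriptions, with no test.

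Spots of a probe gave the technical error within an array. For the brightest probes of the 5 members from 5p arms the median coefficient of variation between spots was 4.91% to 7.45%, with 10 spots per array, and for miR-125a-3p it was 11.8%, with 5.

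The 5 members from 5p arms were each read by a second probe, shorter by 1 base, that was well above background on all arrays; for miR-125a-3p such a probe was so on 6 of 7. For miR-99a-5p, miR-99b-5p and miR-125a-5p it gave log2 differences between IL-6 and control of -0.017, -9.2e-05 and 0.024, against -0.031, -0.013 and -0.0060 with the brightest probe. Both probes thus placed these 3 within 0.031 of 0.

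For miR-100-5p the probes disagreed. The 18-base probe, cacaagTtcggatctacg, is the 19-base one without its last base. It read 49.9, 50.5 and 49.99 in control and 55.7, 54.4, 54.7 and 59.0 with IL-6. Every IL-6 array lay above every control. In a fit in which each miRNA took its second probe where that was well above background on all arrays, 13.3% of the tested miRNAs lay wholly above control in this way. In that fit, an alternative chosen after seeing the data, miR-100-5p rose by 0.16 ± 0.034 on the log2 scale (SE; limma, Benjamini-Hochberg adjusted p = 0.0455) and was the 1 member to pass, where 9.94% of all tested miRNAs passed and 6.08% were higher.

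That call did not hold in 13 of 14 other fits of the same probe. Among these 13 were the fits with the replicate number or the slide column as a block. Without any 1 of the 7 arrays, miR-100-5p by this probe had a log2 fold change of 0.13 to 0.19 and did not pass (limma, Benjamini-Hochberg adjusted p from 0.0716 to 0.176). It passed with scaling by the median of probe ratios (0.13, adjusted p = 0.0379) but not with quantile normalization (0.031, adjusted p = 0.644), spike-in scaling (0.34, adjusted p = 0.104), no scaling (0.33, adjusted p = 0.268) or the 75th percentile over all probes (0.016, adjusted p of 1), all with limma. The log2 ratio of the 18-base to the 19-base probe within an array was -2.24 ± 0.030 (SD, n = 3) in control and -2.10 ± 0.042 (SD, n = 4) with IL-6. This difference of 0.14 had an exact permutation p of 0.0286 (two-sided), the smallest that 35 splits of the arrays allow. Adjusted over the 6 members with 2 probes above the floor, the exact permutation p was 0.171, which is the lowest a lone member can reach among 6, so this adjusted test could not pass for miR-100-5p by itself. The scaling cancels in this ratio, and the 18-base probe was the dimmer one, at 42.6 to 68.0 intensity units before scaling against 198 to 290; the part of background in the disagreement was not tested.

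miR-125b-5p had a gap between its probes in the other direction. The 16-base probe, tcacaagttagggtct, read 2239, 2507 and 2143 in control and 1842, 2036, 2077 and 2330 with IL-6, so that 3 IL-6 arrays lay below every control and replicate 4 above 2 of them. Its log2 difference was -0.15, against -0.043 with the 17-base probe, tcacaagttagggtctc. The ratio of the 2 probes did not differ between groups beyond its spread (difference -0.11, exact permutation p = 0.229, adjusted p = 0.514).

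**Figure D2:**
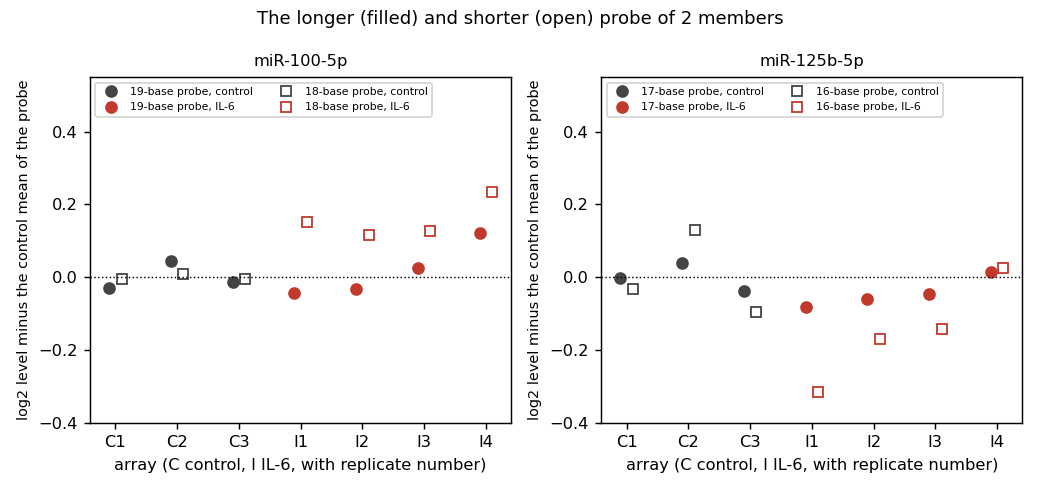
Log2 level minus the control mean of the probe (y axis) on each control (C) and IL-6 (I) array (x axis) for the longer probe (filled) and the shorter probe (open) of miR-100-5p and miR-125b-5p. The 18-base probe of miR-100-5p lies above 0 on all 4 IL-6 arrays while the 19-base probe scatters around 0; for miR-125b-5p the shorter probe lies lower on 3 IL-6 arrays.

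Ratios between members within an array do not depend on any scale factor between arrays, and ask whether members changed by unequal amounts. Of 15 listed pairs, 14 had both miRNAs above the floor on every array, and the lowest adjusted p was 0.267 (exact permutation tests over 35 splits, two-sided). A lone pair cannot go below an adjusted p of 0.4 here, and 9 of the 14 would have to stand at the smallest p for any to pass, so the sizes and ranges are what these ratios give. At the chromosome 1 locus the log2 ratio of miR-99b-5p to miR-125a-5p was -0.63 ± 0.033 (SD, n = 3) in control and -0.64 ± 0.088 (SD, n = 4) with IL-6, a difference of -0.0075 (exact permutation p = 0.943, adjusted p of 1). The arms of miR-125a differed in their change by -0.047, 5p relative to 3p (exact permutation p = 0.743, adjusted p = 0.945). With total gene signal this difference was -0.43 (exact permutation test, adjusted p = 0.4). For miR-99a-5p to miR-125b-5p the difference was 0.012 (exact permutation p = 0.714, adjusted p = 0.945), and for miR-125a-5p to miR-125b-5p 0.037 (exact permutation p = 0.343, adjusted p = 0.686).

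Mir100 and Mir125b1 share the chromosome 8 locus, though miR-125b-5p signal may also come from the chromosome 11 locus. The ratio of miR-100-5p to miR-125b-5p was the one ratio between members whose groups did not overlap. It ran from -5.78 to -5.73 in control and from -5.73 to -5.65 with IL-6, so the groups nearly touched. The difference was 0.061 (exact permutation p = 0.0571, adjusted p = 0.267). It depended on the processing in both directions: it turned to -0.036 with quantile normalization and -0.025 with normexp, and was 0.10 with total gene signal, 0.18 with the mean of all probes and 0.31 with the second probes. Groups were also apart for the ratios of let-7e-5p to miR-125a-5p and let-7c-5p to miR-99a-5p. Among single tested miRNAs 22.1% showed no overlap, and the share among ratios of other miRNAs was not computed.

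The let-7 partners of the clusters were compared next. On the list of 11 cluster partners and other arms, 9 were matched on the array by name and 5 were tested, of which none passed. All 5 had positive log2 fold changes, as had 104 of all 181 tested miRNAs, with a median of 0.050 against 0.015 over all tested. Of the 5, miR-99b-3p was at the floor on every control array, so its change could not be negative. The value of let-7c-5p turned to -0.031 with the 75th percentile taken over all probes. let-7e-5p, between miR-99b and miR-125a, had log2 levels of 9.25 to 9.36 in control and 9.37 to 9.58 with IL-6, without overlap, and a log2 fold change of 0.15 ± 0.058 (SE; limma, Benjamini-Hochberg adjusted p = 0.154). The let-7e-5p value was 0.026 with quantile normalization, 0.022 with normexp and 0.013 with the percentile over all probes. let-7c-5p had 11.18 to 11.23 in control and 11.27 to 11.40 with IL-6, also without overlap, and 0.11 ± 0.037 (SE; limma, Benjamini-Hochberg adjusted p = 0.135). Such a separation upward was seen in 11.6% of all tested miRNAs. let-7a-5p, the partner at chromosome 8, had 0.020 ± 0.073 (SE; limma, Benjamini-Hochberg adjusted p = 0.909). let-7a-5p and let-7c-5p are also listed at other loci, let-7a-1 and let-7c-2, so their signal is not that of these clusters alone, and let-7 sequences are so similar that their probes can share signal.

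Set against members of the same cluster, let-7e-5p was 0.16 higher relative to miR-125a-5p with IL-6 than in control (exact permutation p = 0.0571, adjusted p = 0.267), and 0.17 higher relative to miR-99b-5p (exact permutation p = 0.171, adjusted p = 0.4). let-7c-5p was 0.14 higher relative to miR-99a-5p (exact permutation p = 0.0571, adjusted p = 0.267) and 0.15 higher relative to miR-125b-5p (exact permutation p = 0.0857, adjusted p = 0.3). The miR-125b-5p signal cannot be assigned to a single cluster. let-7a-5p differed by 0.0021 relative to miR-100-5p (exact permutation p of 1). The adjusted values are under the same limit as those of the member pairs. The difference for let-7e-5p to miR-125a-5p was 0.051 with quantile normalization, 0.044 with normexp and 0.099 with the second probes, and that for let-7e-5p to miR-99b-5p was 0.092 and 0.081 with the first 2 of these. For let-7c-5p to miR-99a-5p it was larger with quantile normalization (0.21) and normexp (0.20), and smaller with the second probes (0.072). Of the other arms, miR-99a-3p had a log2 fold change of 0.050 ± 0.063 (SE), miR-99b-3p was at the floor on 6 of 7 arrays, and miR-100-3p, let-7e-3p and let-7c-1-3p were detected on no array.

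**Figure D3:**
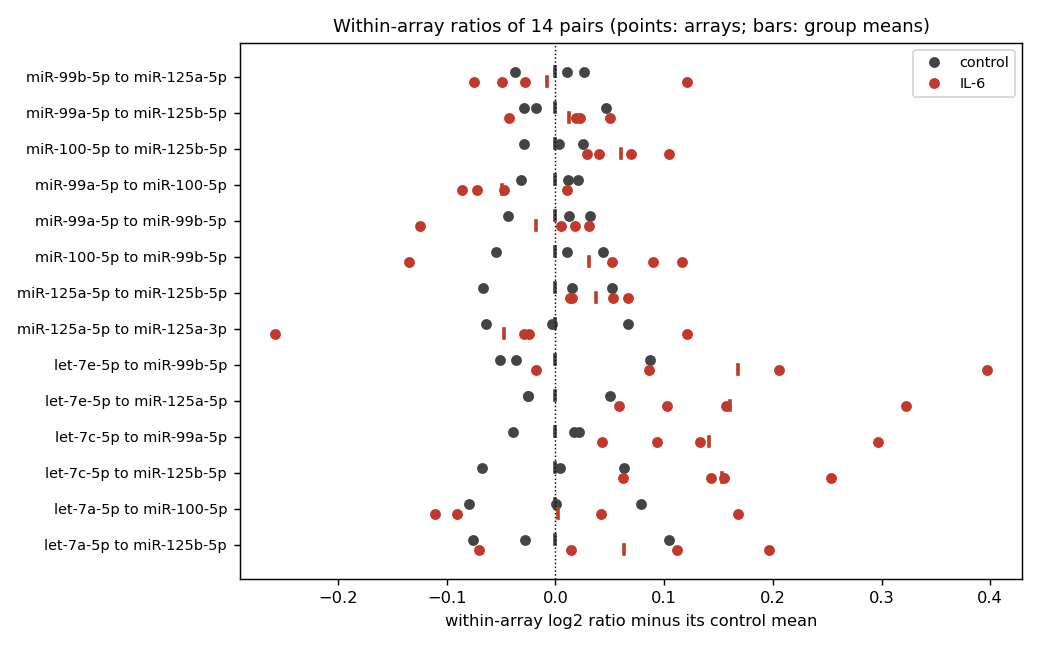
Within-array log2 ratio minus its control mean (x axis) for 14 pairs, with a point per array and a bar per group mean. Most ratios between members have IL-6 arrays on both sides of 0, while for miR-100-5p to miR-125b-5p and miR-125a-5p to miR-125b-5p all 4 lie above it. The 4 ratios of let-7e-5p and let-7c-5p to members have IL-6 means between 0.14 and 0.17.

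**Figure D4:**
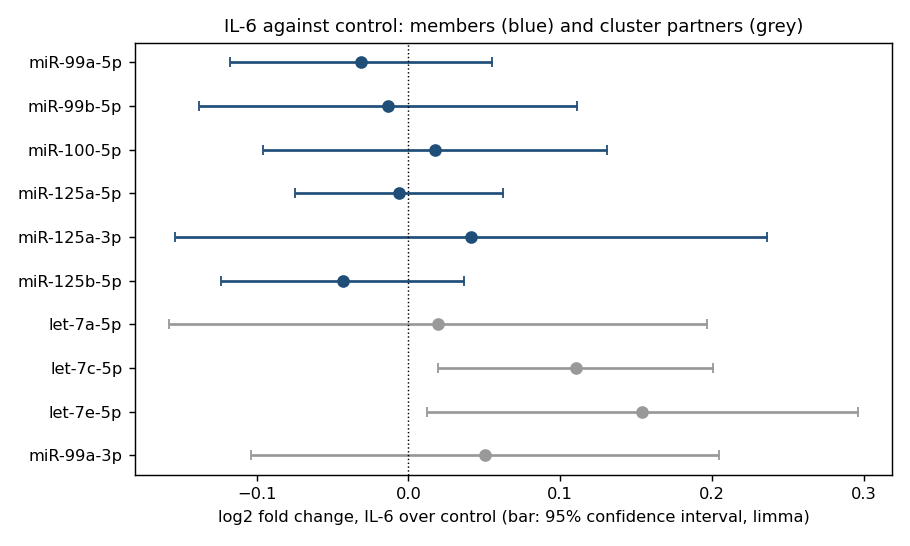
Log2 fold change of IL-6 over control (x axis) with its 95% confidence interval from limma for 6 members (blue) and 4 tested cluster partners or arms (grey). The interval of every member covers 0; those of let-7c-5p and let-7e-5p do not, before adjustment for the number of miRNAs tested.

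The miRNAs whose pattern over the 7 arrays was most like a member were named by the lowest SD of the log2 ratio to it, among 156 others. For miR-99b-5p this was miR-127-3p (SD 0.015, against a median of 0.14 over the 156). For miR-99a-5p it was miR-186-5p (0.025), followed by miR-125a-5p (0.032). The nearest to miR-125a-5p were miR-34a-5p (0.027) and miR-186-5p (0.030), and the nearest to miR-125b-5p miR-365-3p (0.030) and miR-103-3p (0.031). miR-22-5p (0.037) and miR-365-3p (0.040) were nearest to miR-100-5p, and miR-7a-5p (0.054) and miR-341 (0.057) to miR-125a-3p. miR-324-5p (0.032) was the second for miR-99b-5p. Apart from miR-125a-5p beside miR-99a-5p, no member and no let-7 partner was among these. The measure favours bright miRNAs, which vary less.

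How far the members' changes move with the processing is shown for each setting that keeps all 7 arrays. Under the scalings that shift the median of all tested miRNAs, the members moved with it. A factor per array shifts all log2 fold changes above the floor alike. The median of the 6 was 0.17 without scaling, beside 0.17 for every tested miRNA together. With the percentile taken over all probes it was -0.15, beside -0.12.

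**Figure D5:**
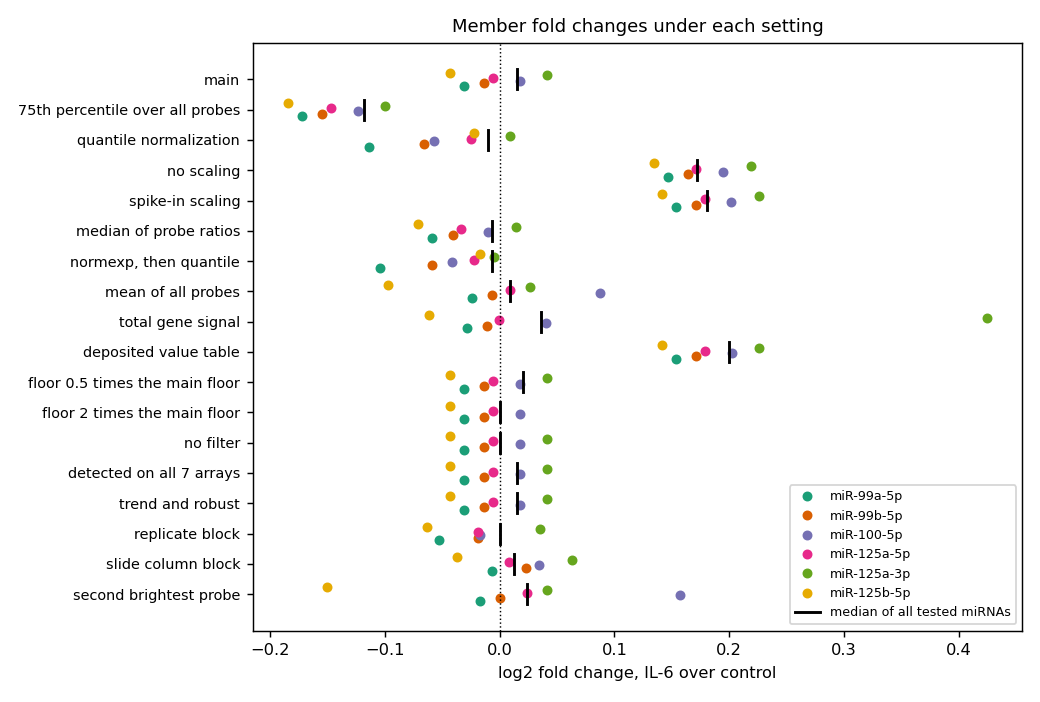
Log2 fold change of IL-6 over control (x axis) of 6 members (coloured points) under each setting (rows), with the median of all tested miRNAs as a black bar. The members shift with the bar across scalings; miR-100-5p with the second probe (0.16), miR-125b-5p with the second probe (-0.15) and miR-125a-3p with total gene signal (0.42) lie apart from it.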

How the data were processed

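Cy3-labelled total RNA was hybridised to 1-colour Agilent rat miRNA arrays, per the labels' protocols. The spot intensities in the deposited scanner files come from Agilent Feature Extraction 10.10.1.1, per the submitters' processing notes and the file headers. Their processed signal was spatially detrended, with background correction recorded as off, and is not scaled between arrays, per the file headers. A deposited table repeats the total probe signal intensity of all 15095 spots (tolerance 0.001); it is linear and uncentred, with array medians from -1.35 to 0.10.

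Control spots were set aside, as were outlier spots (2.88% to 3.84% of 14380). Probe means were taken over spots and scaled by the 75th percentile of 268 probes that were well above background (at least 0.5 of their spots) on each array. Values were raised to a floor of 15.7, which is the lowest scaled intensity above background per array (median of the 7), and put on the log2 scale. A miRNA's brightest probe stood for it. The 181 miRNAs detected throughout at least 1 group were tested (limma 3.58.1 in R 4.3.3; lmFit, eBayes, Benjamini-Hochberg). The fit was also run on simulated data with independent noise. That simulation held no floor, scaling or slide effect, so it does not vouch for the calls under those. Precision is limited by the number of arrays; the SE of a log2 fold change had a median of 0.067.

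Members, lists and tests were chosen with earlier results of these data known. Named were all members, cluster partners and other arms, miRNAs sharing a seed, and the 2 nearest patterns per member. The list entries let-7a-2-3p and let-7c-2-3p were not analysed here. Alternatives were other scalings, background, probes, floors, filters, blocks and leaving out each array; the second probe and its checks were added after seeing the data.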

Additional observations from a re-analysis of the deposited data

Results flagged for a closer look

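Among 25 quantities of the members, partners, pairs and arrays, 2 had 1 IL-6 array far from the other 3, by the gap as a part of the range (Dixon's test at the 95% level); chance does so in about 1 in 20. For miR-99a-5p over miR-99b-5p, IL-6 replicate 1 had a within-array log2 ratio of 1.21, while replicates 2 to 4 had 1.35, 1.34 and 1.36 (gap over range 0.831). The spike-in controls averaged 11.74 (log2 intensity) on IL-6 replicate 1 and 11.86, 11.85 and 11.85 on replicates 2 to 4 (gap over range 0.953).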

How the results depend on the processing

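No member passed in 23 of 24 alternatives; with the second probe 1 did, miR-100-5p at 0.16. Scaling set the sign of the small changes. The median of all tested miRNAs moved from 0.015 to -0.12 with the 75th percentile over all probes, where miR-100-5p turned to -0.12, miR-125a-3p to -0.10 and let-7c-5p to -0.031. It moved to 0.17 without scaling, to 0.18 when scaled by spike-ins and to 0.20 for the deposited value table. In these 3, in that order, miR-99a-5p turned to 0.15, 0.15 and 0.15, miR-99b-5p to 0.16, 0.17 and 0.17, miR-125a-5p to 0.17, 0.18 and 0.18, and miR-125b-5p to 0.13, 0.14 and 0.14, all below that median. With quantile normalization miR-100-5p was -0.058 and the ratios of miR-99a-5p, miR-100-5p and miR-125a-5p to miR-125b-5p were -0.092, -0.036 and -0.0029. With normexp background correction and then the same quantile normalization, these were -0.042, -0.087, -0.025 and -0.0050, and miR-125a-3p was -0.0045. miR-100-5p was -0.0100 with the median of probe ratios. miR-125a-5p was 0.0088 with the mean of all probes and 0.024 with the second probe. The ratio of let-7a-5p to miR-100-5p was -0.075 with the mean of probes, -0.028 with total gene signal and -0.15 with the second probe. Among values that kept their sign, miR-125b-5p ran to -0.18 and miR-99a-5p to -0.17 with the percentile over all probes. With total gene signal miR-125a-3p ran to 0.42 and the ratio of miR-125a-5p to miR-125a-3p to -0.43. At a floor of 2 times the main one miR-125a-3p gave no value. A factor per array shifts all log2 fold changes above the floor alike, so turns between scale factors follow from that common shift. The cause of the other turns was not tested.

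The deviations of same-numbered arrays correlated at 0.52, -0.18 and 0.26, which does not pair the samples by number; the pair at 0.52 also shares a slide column. Arrays of 1 column correlated at 0.52, 0.19 and 0.13. With the replicate block, to which IL-6 replicate 4 adds nothing, 0 miRNAs were higher and 3 lower, and miR-100-5p was -0.017; with the slide column block the counts were 0 and 0 (52 unadjusted), miR-99b-5p was 0.023 and miR-125a-5p 0.0077.

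The series' counts of 9 higher and 8 lower became 0 and 0 with the percentile over all probes, without scaling, in the value table and with no filter (limma; 1, 29, 28 and 41 at an unadjusted p under 0.05), 4 and 0 with spike-in scaling, and 3 and 2 with total gene signal. The lower count was 14 with the median of probe ratios, 14 with normexp and 5 at the doubled floor.

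Leaving out 1 array gave 0 to 9 higher and 0 to 7 lower. Both were 0 without control replicate 1 (31 unadjusted) or IL-6 replicate 3 (39 unadjusted). Dropping control replicate 2 left 0 and 2, and dropping IL-6 replicate 4 left 2 and 6. Log2 fold changes ran from -0.053 to 3.3e-06 for miR-99a-5p, -0.049 to 0.040 for miR-99b-5p, -0.017 to 0.043 for miR-100-5p, -0.020 to 0.042 for miR-125a-5p and -0.021 to 0.088 for miR-125a-3p. Ratio differences ran from -0.050 to 0.015 for miR-99b-5p to miR-125a-5p, -0.0022 to 0.035 for miR-99a-5p to miR-125b-5p, -0.040 to 0.018 for miR-99a-5p to miR-99b-5p, -0.10 to 0.023 for miR-125a-5p to miR-125a-3p and -0.053 to 0.042 for let-7a-5p to miR-100-5p.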
